A study of Mus musculus with 20 samples.

Results

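The genes described here encode the proteins of the cytosolic ribosome, and they were followed in livers of mice on a high-fat diet (HFD) or on chow. Members were the protein-coding genes of the deposited count table with the symbol Rpsa, Rplp0, Rplp1 or Rplp2, or with Rpl or Rps followed by a number and at most 1 of the letters a, x, y and l. This gave 80 members among 55401 gene IDs, of which 31 belong to the small and 49 to the large subunit. RNA was sequenced from livers of C57BL/6 mice labelled WT: 10 libraries came from mice on HFD for 12 weeks (60% fat) and 10 from mice on standard chow. The study's design text speaks of several HFD groups, but all 10 HFD samples carry the same labels and were treated as 1 group. The labels name no batch, so diet and handling cannot be told apart, and whether every library came from its own animal is not labelled, so a p-value here reflects only how these libraries spread.

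Ribosomal proteins wrap the rRNA of both ribosomal subunits, and cells make them in matched amounts because an unassembled protein is usually degraded. Their mRNAs are among the most abundant in a cell, and many begin with a run of pyrimidines (C and T), the TOP motif, through which mTORC1 signalling controls their translation. In liver, whose hepatocytes secrete most plasma proteins, ribosome supply follows feeding. Mammalian genomes also hold many processed pseudogenes of these genes, copied from spliced mRNA, which matters for how sequencing reads are assigned.

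Starts are shown for the pyrimidine run that defines a TOP mRNA, for the P stalk and the members called higher or lower with all libraries or without HFD 1 and HFD 2, other than Rps14 and those with no table entry, with Rps27 and Rps6 added after their values were seen. The set is not a sample of all members, whose share with the run is given after it. Each window holds 15 bases before and 15 bases from the annotated start in RefSeq (GRCm38.p6), and capitals mark a run of at least 5 C or T bases that includes the first transcribed base.
Rps27l, chr9:66946071-66946100, plus strand: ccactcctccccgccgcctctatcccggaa
Rps27, chr3:90213634-90213663, minus strand: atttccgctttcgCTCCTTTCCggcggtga
Rpl35a, chr16:33056438-33056467, plus strand: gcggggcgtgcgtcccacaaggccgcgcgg
Rps2, chr17:24720048-24720077, plus strand: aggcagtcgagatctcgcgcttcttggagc
Rpl5, chr5:107900513-107900542, plus strand: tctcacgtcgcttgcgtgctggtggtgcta
Rpl28, chr7:4792950-4792979, plus strand: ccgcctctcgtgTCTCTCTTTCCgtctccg
Rpl10a, chr17:28328550-28328579, plus strand: gctctatttgagcgcatgcgcaaagcgctc
Rps10, chr17:27635230-27635259, minus strand: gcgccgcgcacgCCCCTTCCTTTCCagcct
Rplp0, chr5:115559452-115559481, plus strand: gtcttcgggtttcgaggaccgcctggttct
Rplp2, chr7:141447636-141447665, plus strand: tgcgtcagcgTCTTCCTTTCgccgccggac
Rps6, chr4:86857353-86857382, minus strand: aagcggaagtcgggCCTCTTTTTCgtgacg

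Of the 80 members, 60 had an entry in the RefSeq promoter table, which covers 250 bases before to 50 after each annotated start. Where a member had several entries, the one nearest the start of its coding transcript was used. For the shares of all genes, the entry with the lowest coordinate was used. The shares of members and of all genes below therefore rest on starts chosen by different rules. A run of at least 5 C or T bases at the first transcribed base was present in 17 of the 60 (28.3%), against 10.0% of the 27025 genes of the table. A run of that length beginning with C lay within 15 bases of the start in 36 members (60.0%) and in 36.4% of all genes. In the windows shown, Rps27 carried a run that included the first transcribed base and its paralog Rps27l did not. The Rps27l window did hold a run beginning with C within 15 bases of the start. The letters CCGGAAG, the core read by ETS factors, occurred on either strand in 23 members (38.3%) and in 9.08% of all genes. GGGCGG occurred in 58.3% of members and 35.6% of all genes, AAGATGG in 13.3% and 6.46%, and TATAAA in 8.33% and 14.1%. Annotated starts can miss the position used in liver, and a match is a description of the letters only.

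The coding sequences of Rps27l and Rps27 show how far these paralogs differ. Both coding sequences are 252 bases long and 192 of these bases (76.2%) are the same. The first 90 coding bases of each are shown, with capitals at the 24 positions where they differ (GENCODE M21, GRCm38).
Rps27l: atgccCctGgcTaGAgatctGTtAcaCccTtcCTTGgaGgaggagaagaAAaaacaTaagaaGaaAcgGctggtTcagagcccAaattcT
Rps27: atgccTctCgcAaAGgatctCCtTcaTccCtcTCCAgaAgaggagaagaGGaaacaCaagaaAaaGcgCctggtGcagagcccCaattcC
Every stretch of 100 bases of the Rps27l transcript (100%) was absent from the GENCODE transcripts of all other genes. For Rps27 this held for 1.63% of such stretches. The stretches that Rps27 shares with other genes are therefore not those of this Rps27l transcript. Its near-copy Rps27rt is described below.

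The libraries held 20111896 to 90033879 counts in HFD livers and 34727227 to 49065587 in chow livers. The libraries HFD 1 and HFD 2 stood apart, with 75.6% and 94.4% mitochondrial counts, against 1.34% to 2.54% in HFD 3 to 10 and 1.71% to 3.10% in chow livers. They kept 1906287 and 2650330 counts from nuclear protein-coding genes, where the other libraries had at least 25369355. Nuclear rRNA took 13.3% of counts in HFD 1 and 20.4% in chow 9, against at most 0.807% in any other library. Members took 2.37% and 3.11% of those nuclear counts in HFD 1 and HFD 2 and 0.669% to 0.891% in HFD 3 to 10, against 0.661% to 1.10% in chow livers. Summed hepatocyte markers reached 25207 and 22063 CPM (counts scaled by TMM to 1e+06 per library) in HFD 1 and HFD 2 and 57270 to 129071 CPM in HFD 3 to 10, against 82548 to 131011 CPM in chow livers. Summed erythroid markers, the alpha and beta globins and Alas2, were 4780 and 10612 CPM in HFD 1 and HFD 2 and 270 to 1651 CPM in HFD 3 to 10, against 345 to 1250 CPM in chow livers. Markers of T and NK cells summed to 33.5 and 30.9 CPM in those same libraries and to 0.836 to 30.0 CPM in HFD 3 to 10, against 4.35 to 6.59 CPM in chow livers. In whole tissue, fewer cells of a type and less RNA per cell cannot be told apart, and the part of these levels in the members' values was not tested. Macrophage markers summed to 1433 to 2792 CPM in HFD livers and 469 to 867 CPM in chow livers, and 8 of 10 were called higher in HFD. Neutrophil markers summed to 20.6 to 330.3 CPM in HFD livers and 3.71 to 4.96 CPM in chow livers, and all 5 tested were called higher. B and plasma cell markers reached 1024 CPM in HFD 8 and at most 81.7 CPM in the other HFD livers, against at most 65.9 CPM in chow livers. The part of these cells in the members' values was not tested. Apoe, outside the members, was at 15.7 to 819 CPM in 9 HFD libraries and 10124 CPM in HFD 6, against 12739 to 17328 CPM in chow livers, and a difference in genotype against the WT label was not tested.

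**Figure D1:**
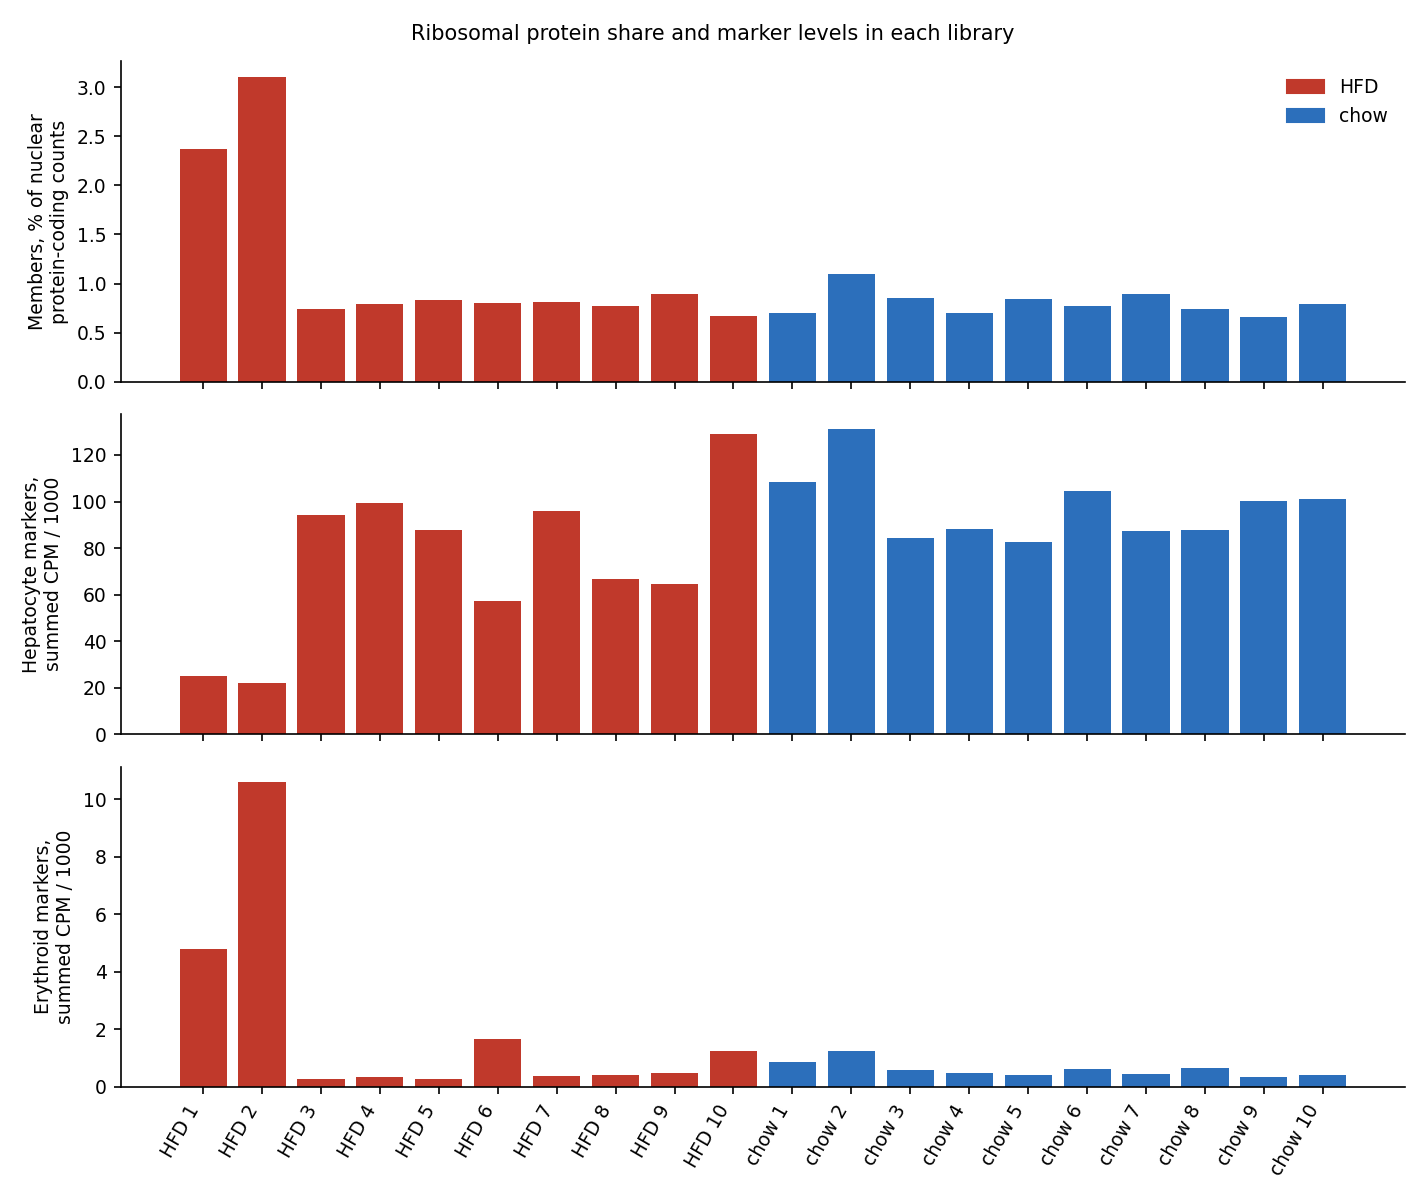
Bars give, for each library (HFD 1 to 10 in red, then chow 1 to 10 in blue), the share of nuclear protein-coding counts at members in percent and the summed CPM of hepatocyte and erythroid markers, scaled as the axes state. HFD 1 and HFD 2 have the highest member shares (2.37% and 3.11%), the lowest hepatocyte sums and the highest erythroid sums.

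Because of these values, the diet comparison was run with all 20 libraries and again without HFD 1 and HFD 2. HFD 1 lay above the highest of the 18 other libraries for 59 of 76 tested members, HFD 2 for 58, and both did so for 47. Among chow livers, chow 2 was the highest for 72 of the 76. In chow 2 the summed markers of sinusoidal endothelium and stellate cells were the lowest of the chow livers, at 63.1 and 82.0 CPM, where the chow medians were 195 and 179 CPM.

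Levels per transcript length differed widely between members, although most of their proteins are needed in equal amounts. The highest mean FPKM (counts per kilobase and library size, deposited by the authors) belonged to Rps15, a protein of the small-subunit head. It averaged 457 ± 169 FPKM in HFD livers and 568 ± 113 FPKM in chow livers (SD, n = 10 each). FPKM is scaled to all counts of a library, of which 75.6% and 94.4% were mitochondrial in HFD 1 and HFD 2. This lowers the FPKM of nuclear genes in both libraries, so the HFD and chow means here are not a diet comparison. Rplp1, a stalk protein, averaged 264 ± 95.6 FPKM in HFD and 349 ± 80.1 FPKM in chow livers. Rps2, at the mRNA entry side of the small subunit, averaged 248 ± 80.5 FPKM in HFD and 345 ± 65.6 FPKM in chow livers. The means of Rplp1 and Rps2 lay within 1 SD of each other in both groups. Next in order over all libraries came Rplp0, Rpl8 and Rpl4. Rplp0 averaged 281 ± 114 FPKM in HFD and 305 ± 45.0 FPKM in chow livers, within 1 SD of Rpl8, which averaged 216 ± 93.4 FPKM in HFD and 268 ± 42.1 FPKM in chow livers. At the other end, 14 members stayed under 1 FPKM in chow livers while 15 were above 100 FPKM. Rpl10l, a testis copy of Rpl10, had no count in any library, which allows up to 0.00266 CPM over all 20 (3 counts, counting error only). Rpl39l, Rpl3l and Rpl24 had 34, 46 and 63 counts over all libraries and, with Rpl10l, did not pass the filter on low counts, so that 76 members were tested. Rpl39l and Rpl3l are paralogs known from testis and muscle, whereas Rpl24 is a standard part of the large subunit.

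The low levels of standard members went with where near-identical sequence was counted. Near-copies were defined as other genes sharing at least 50 distinct stretches of 50 bases with a member and annotated as pseudogenes, carrying a Gm or -ps symbol, or the retrotransposed copy Rps27rt, each assigned to the member with which it shared most. There were 594 of them for 75 members, 571 annotated as pseudogenes, and they held 47.1% of the counts of members and near-copies together. Near-copies held at least 50% of the summed counts for 43 of 76 tested members and at least 90% for 24. Rps10 had 357 counts over the 20 libraries and its near-copies 166199. For Rps6, the target of S6 kinase, 5142 counts lay at the gene and 249490 at near-copies, 248702 of them at Rps6-ps4. Rpl5 had 1416 counts and its near-copies 110971. Rpl24 had 63 counts and its near-copies 66140. Rps27 had 1736 counts and its near-copies 109136, 109123 of them at Rps27rt, which is annotated as protein-coding, while Rps27l, with 153098 counts, had no near-copy.

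The median chow level was 3.71 FPKM for the 34 tested members with under 50% unique stretches of 100 bases and 50.1 FPKM for the other 42. Across the 76 tested members, chow FPKM had a Spearman correlation of 0.63 with the unique share and of -0.79 with the share of counts at near-copies (across genes, which share libraries and are not independent replicates). Expressed as CPM per kilobase in chow livers, the 90th percentile of members was 219 times the 10th percentile when the member alone was counted, and 9.32 times when its near-copies were added. No label or header says how reads matching several places were assigned, so levels of members with many near-copies are uncertain.

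**Figure D2:**
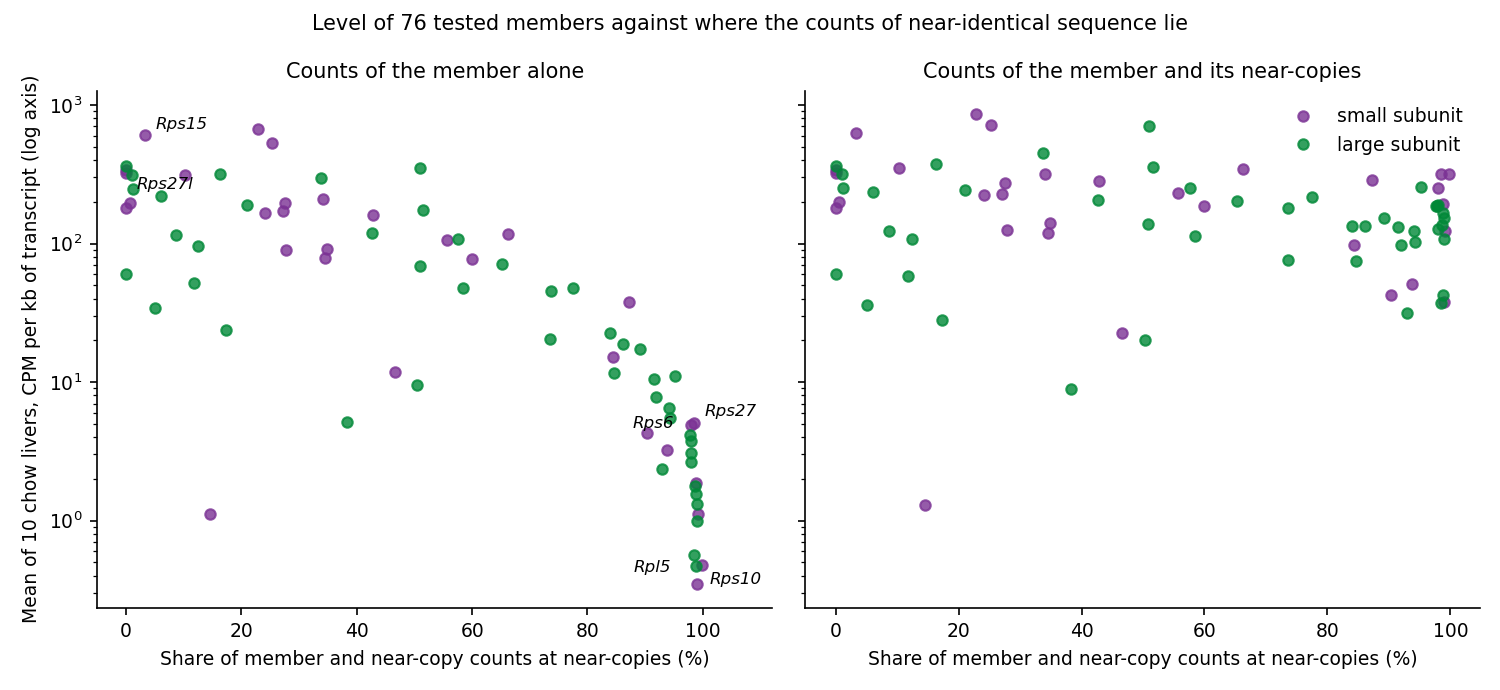
Each point is 1 of 76 tested members (purple, small subunit; green, large subunit), placed by the percentage of member and near-copy counts found at near-copies and by its mean in 10 chow livers in CPM per kilobase (log axis), for the member alone (left) and with near-copy counts added (right). Members with over 90% of counts at near-copies, such as Rps10 and Rpl5, lie low on the left and among the others on the right.

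With all 20 libraries, 1 member was lower in HFD livers, Rps27l, and 4 were higher, Rpl5, Rpl28, Rps27a and Rpl10a, out of 76 tested (edgeR quasi-likelihood test, adjusted p under 0.05 over all genes). These are 1.32% called lower, against 7.05% of all 14542 tested genes, and 5.26% called higher, against 13.0% of all genes. The count of 4 higher members became 0 without HFD 1, 7 without chow 2, and 1 without HFD 2 or without any single chow library other than chow 2. In these refits 2424 to 3330 of all tested genes were called in either direction, against 2911 with all libraries. The median member had a log2 change of 0.25 and the median of all tested genes was 0.02. Without HFD 1 and HFD 2, 5 members were lower (Rps27l, Rpl35a, Rpl36, Rps2 and Rps14) and 2 were higher (Rpl5 and Rps10). These are 6.58% called lower, against 10.4% of all 14842 tested genes, and 2.63% called higher, against 17.9% of all genes. The members' median was then -0.12, against 0.03 for all genes, and 31 of the 76 had the opposite sign to the comparison of all libraries. Estimates above 0 numbered 58 of 76 with all libraries and 27 of 76 without HFD 1 and HFD 2. The 95% interval lay wholly within a 2-fold change for 48 members with all libraries and for 74 members without HFD 1 and HFD 2. Their median standard error of log2 change was 0.25 and 0.15 in the same order of fits.

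**Figure D3:**
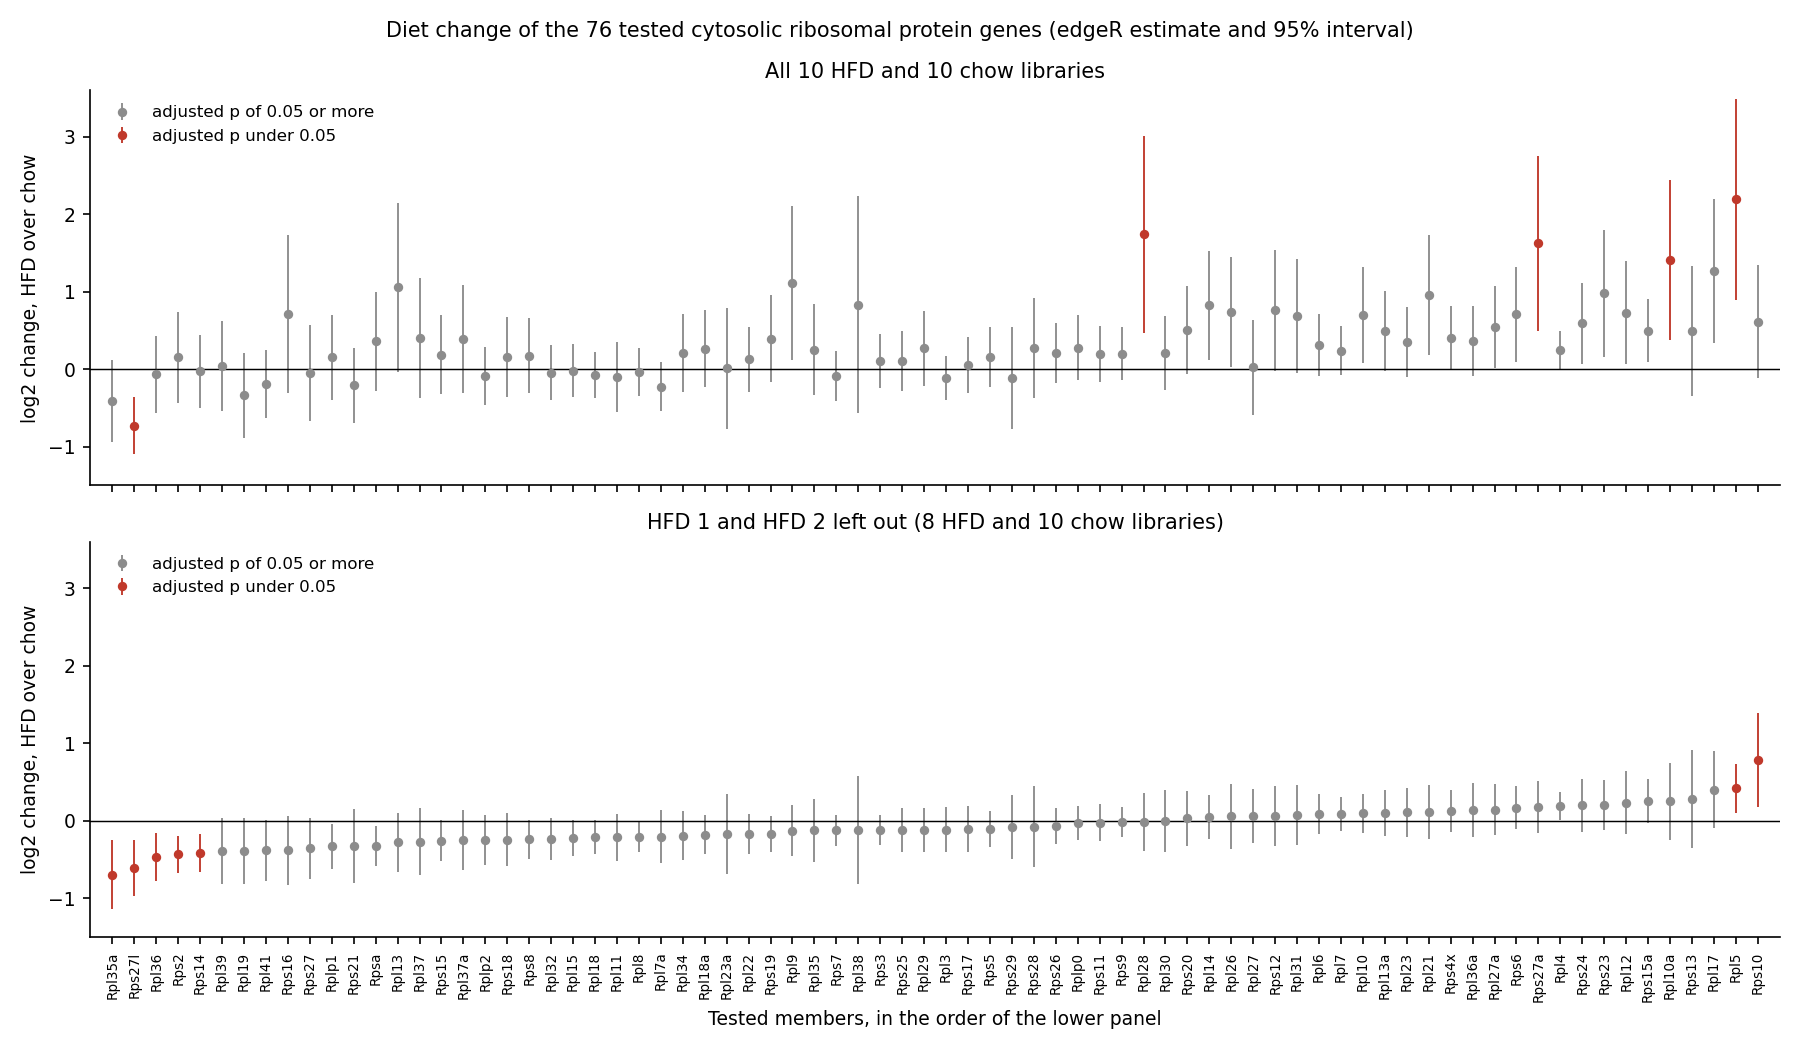
Points are log2 changes, HFD over chow, with 95% intervals for the 76 tested members, with all 20 libraries (top) and without HFD 1 and HFD 2 (bottom), in the order of the lower panel. Red marks adjusted p under 0.05: 5 members at the top, of which Rpl5 is highest at 2.20, and 7 at the bottom, from Rpl35a at -0.70 to Rps10 at 0.79.

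Rps27l (ENSMUSG00000036781, chr9:66946086-66949516, plus strand, GRCm38) encodes the paralog of Rps27 and is known in human cells as a gene that p53 induces. Its level was 59.4, 99.0 and 134 CPM (lowest, median, highest) in the 10 HFD livers, against 116, 168 and 290 CPM in the 10 chow livers. HFD 1 and HFD 2, at 86.6 and 65.4 CPM, were in the lower part of their group, unlike for most members. The groups overlapped: 6 of 10 HFD livers lay below the lowest chow liver and 4 lay inside the chow range. The log2 change was -0.73 (SE 0.18, edgeR adjusted p = 0.00562) with all libraries and -0.61 (SE 0.18, adjusted p = 0.0131) without HFD 1 and HFD 2. Adding near-copy counts of other members left it at -0.73 (adjusted p = 0.00555). Across leave-one-out refits it ranged from -0.78 to -0.61 and stayed called in each. The call was lost with library totals in place of TMM (adjusted p = 0.623) and on log2(FPKM + 1) (adjusted p = 0.247), with the same sign. Rps27 itself was at 0.687, 1.56 and 6.35 CPM in HFD livers, against 1.17, 1.70 and 2.56 CPM in chow livers, and its change of -0.04 had a 95% interval from -0.66 to 0.58. Without HFD 1 and HFD 2 the change of Rps27 was -0.36 (95% interval -0.75 to 0.03). These values use counts at Rps27 alone, whereas most counts of its sequence lay at near-copies. With near-copies added, Rps27 was at 47.3 to 109 CPM in HFD 3 to 10, against 74.3 to 181 CPM in chow livers. HFD 1 and HFD 2 were then at 214 and 158 CPM.

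A further 4 members were lower once HFD 1 and HFD 2 were left out, of which Rpl35a and Rpl36 were chosen for naming after their values were seen. Rps2 reached 315, 383 and 455 CPM in HFD 3 to 10, against 432, 507 and 788 CPM in chow livers. 7 of these 8 HFD livers lay below every chow liver, but HFD 1 and HFD 2 lay above all libraries at 1304 and 1569 CPM. Its log2 change was -0.44 (SE 0.11, edgeR adjusted p = 0.00644) without them and 0.16 (SE 0.28, adjusted p = 0.737) with them. Rps2 also has 46 near-copies, which hold 25.4% of the summed counts, and adding these gave -0.42 (adjusted p = 0.00716) without HFD 1 and HFD 2.

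Rps14, a platform protein of the small subunit whose loss of 1 copy causes anemia in a human deletion syndrome, showed the same layout. It had 238, 298 and 346 CPM in HFD 3 to 10, against 292, 373 and 579 CPM in chow livers. At 729 and 848 CPM, HFD 1 and HFD 2 were highest, and 3 of the other 8 HFD livers were below the chow range. Its log2 change was -0.42 (SE 0.12, edgeR adjusted p = 0.0118) without HFD 1 and HFD 2 and -0.03 (SE 0.23, adjusted p = 0.948) with them.

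Rpl35a, a large-subunit protein mutated in some human cases of Diamond-Blackfan anemia, had 11.0, 29.7 and 41.8 CPM in HFD 3 to 10, against 30.4, 47.9 and 76.1 CPM in chow livers. HFD 1 was high at 84.3 CPM while HFD 2, at 46.1 CPM, fell inside the chow range. The log2 change was -0.70 (SE 0.21, edgeR adjusted p = 0.0191) without both and -0.41 (SE 0.25, adjusted p = 0.275) with both. With near-copies added, Rpl35a was at 14.3 CPM in HFD 6 and 24.4 to 47.0 CPM in the others of HFD 3 to 10. Rpl36, another large-subunit protein, had 23.5, 29.5 and 34.3 CPM in HFD 3 to 10, against 29.6, 41.0 and 75.0 CPM in chow livers. At 85.4 and 79.4 CPM, HFD 1 and HFD 2 were above the whole chow range. Its log2 change was -0.47 (SE 0.15, edgeR adjusted p = 0.0245) without them and -0.07 (SE 0.24, adjusted p = 0.877) with them.

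Near-copy counts added to each member left the lower calls in place without HFD 1 and HFD 2 and added Rpsa, the laminin receptor precursor. 6 of 77 members were then lower, 7.79% against 10.5% of 14675 genes, and none was higher, against 18.1% of all genes. Beside that count of 0, 13 members in either direction had an unadjusted p under 0.05. Rpsa had 173, 206 and 229 CPM in HFD 3 to 10, against 205, 242 and 407 CPM in chow livers, 4 of the 8 HFD livers lying below the chow range. Its log2 change was -0.33 (SE 0.12, edgeR adjusted p = 0.0487) with near-copies and -0.33 (SE 0.12, adjusted p = 0.0506) without them. Leaving out chow 9 as well, Rpsa was at -0.36 (adjusted p = 0.0366) on its own counts. With near-copies and all 20 libraries, Rps27l was the member called lower (1 of 77, against 7.19% of 14377 genes) and Rpl5 the member called higher (against 13.1%).

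**Figure D4:**
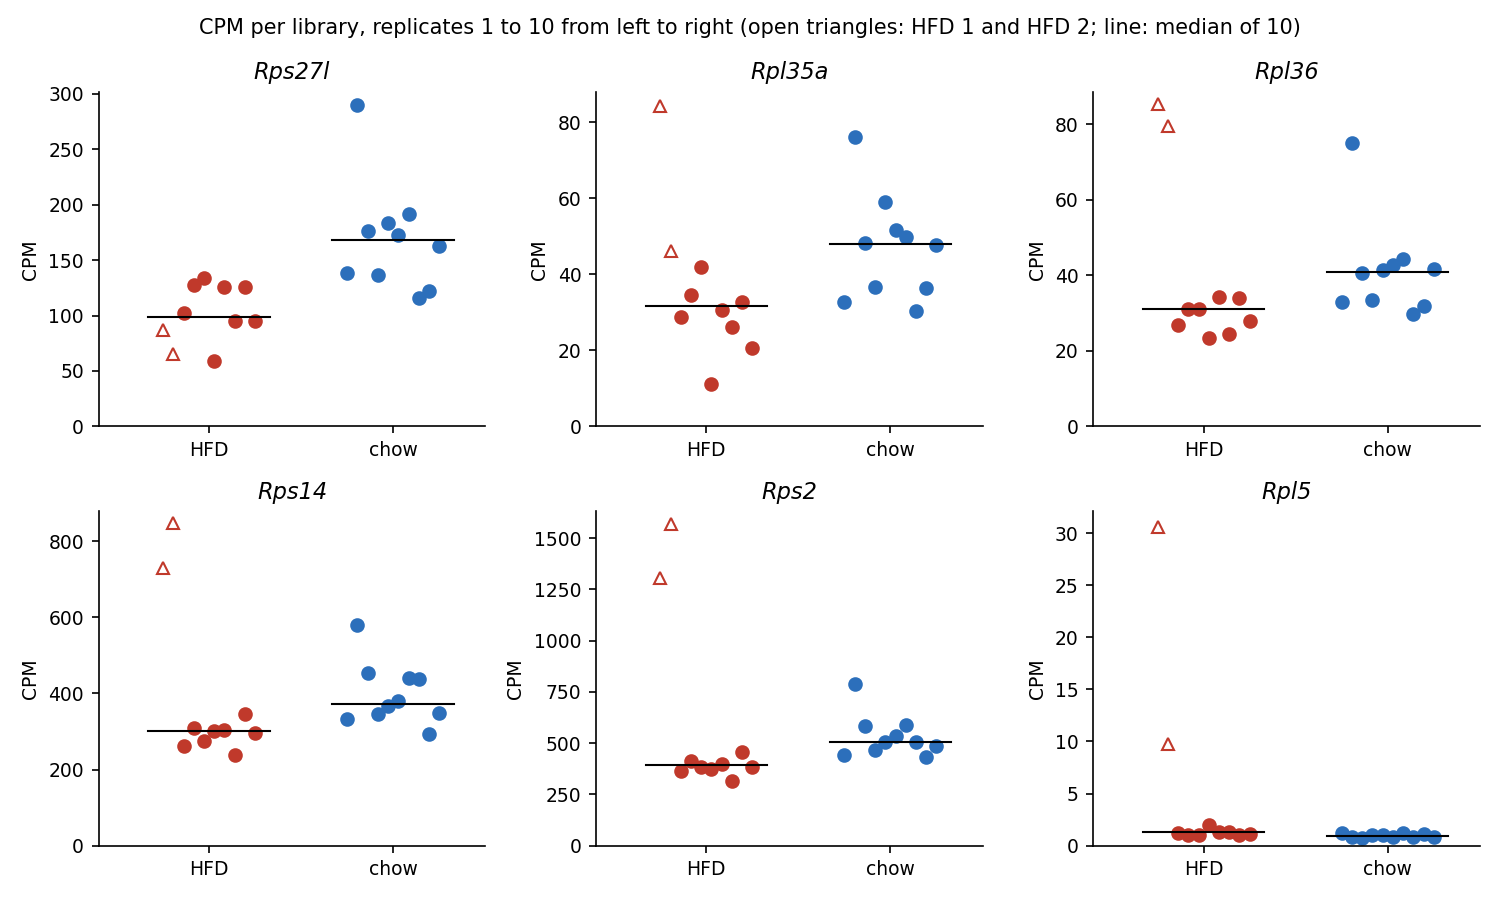
CPM (y axis, from 0) of 6 members in each library, HFD left and chow right, with a line at the median of 10 and open triangles for HFD 1 and HFD 2. For Rps14 and Rps2 the triangles exceed every chow value (729 and 848 CPM, 1304 and 1569 CPM) while the filled HFD points lie low in or below the chow range, and for Rps27l the triangles (86.6 and 65.4 CPM) lie below the chow range.

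Rpl5, which carries the smallest rRNA of the large subunit together with Rpl11 and in free form holds back Mdm2, had the largest estimate. Its level was 30.6 and 9.77 CPM in HFD 1 and HFD 2 and 0.991, 1.19 and 1.99 CPM in HFD 3 to 10, against 0.768, 0.934 and 1.17 CPM in chow livers. Both high libraries set the size of the change, and 4 of the other 8 HFD livers were above the highest chow liver. The log2 change was 2.20 (SE 0.63, edgeR adjusted p = 0.0161) with all libraries and 0.42 (SE 0.15, adjusted p = 0.0436) without HFD 1 and HFD 2. Only 8.89% of its stretches of 100 bases are unique, and exons of other genes cover 26.7% of its exon bases (2.40% on the same strand). With near-copies added it was 0.90 (adjusted p = 0.0273), and 0.34 (SE 0.13, adjusted p = 0.0592) when HFD 1 and HFD 2 were also left out. Rpl11, its partner, had 1.73, 2.85 and 7.50 CPM in HFD livers, against 2.50, 3.44 and 4.80 CPM in chow livers. Its log2 change of -0.10 (edgeR adjusted p = 0.779) did not pass the test, nor did that of -0.21 (adjusted p = 0.294) without HFD 1 and HFD 2.

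The other 3 members called higher with all libraries were not called without HFD 1 and HFD 2. Rpl28, a large-subunit protein that budding yeast lacks, was at 11.0 and 19.5 CPM in HFD 1 and HFD 2 and at 0.715, 0.871 and 1.63 CPM in HFD 3 to 10, against 0.674, 1.04 and 1.26 CPM in chow livers. Its log2 change was 1.74 (SE 0.61, edgeR adjusted p = 0.0480) with both libraries and -0.01 (SE 0.18, adjusted p = 0.970) without. Rps27a, made as a fusion with ubiquitin, was at 9.81 and 20.6 CPM in HFD 1 and HFD 2 and at 1.12, 1.21 and 1.86 CPM in HFD 3 to 10, against 0.851, 1.11 and 2.00 CPM in chow livers. Outside those libraries its groups overlapped fully, and its change was 1.63 (SE 0.54, adjusted p = 0.0382) with them and 0.18 (SE 0.16, adjusted p = 0.425) without. Rpl10a, of the mobile stalk that guides out the spent tRNA, was at 28.3 and 15.9 CPM in HFD 1 and HFD 2 and at 1.34, 2.30 and 6.40 CPM in HFD 3 to 10, against 1.28, 2.35 and 2.69 CPM in chow livers. Its change was 1.41 (SE 0.50, adjusted p = 0.0487) with them and 0.25 (SE 0.24, adjusted p = 0.457) without. Near-copies hold 97.9% to 99.0% of the summed counts of these 3 genes, and none was called once near-copies were added.

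Rps10, of the small-subunit head, was called higher without HFD 1 and HFD 2 and was chosen for naming after its values were seen. It had no count in HFD 1 or HFD 2, 0.172, 0.444 and 0.566 CPM in HFD 3 to 10, and 0.0829, 0.213 and 0.381 CPM in chow livers. 5 of the 8 HFD livers exceeded the chow range, at a depth of 357 counts in all. Leaving out chow 9 as well gave 0.78 (edgeR adjusted p = 0.0650). Its log2 change was 0.79 (SE 0.29, edgeR adjusted p = 0.0479) without HFD 1 and HFD 2 and 0.62 (SE 0.35, adjusted p = 0.227) with them. Near-copies hold 99.8% of the counts of Rps10 sequence, and with them added the change was -0.21 (SE 0.11, adjusted p = 0.151) without HFD 1 and HFD 2.

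The P stalk, through which Rplp0, Rplp1 and Rplp2 recruit elongation factors, showed no call in either comparison. Rplp0 had 342, 390 and 496 CPM in HFD 3 to 10, against 364, 407 and 584 CPM in chow livers, and its change without HFD 1 and HFD 2 was -0.03 with a 95% interval from -0.25 to 0.19. Rplp1 had 75.3, 115 and 143 CPM in HFD 3 to 10, against 111, 135 and 238 CPM in chow livers, 3 of the 8 HFD livers lying below the chow range. Its change was -0.33 (95% interval -0.62 to -0.04, edgeR adjusted p = 0.0871). Rplp2 had 15.8, 21.4 and 24.0 CPM in HFD 3 to 10, against 16.8, 26.1 and 42.2 CPM in chow livers, with a change of -0.25 (95% interval -0.57 to 0.07). These intervals leave room for a decrease in all 3 stalk genes.

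Members with well-known functions beyond structure mostly had intervals that included 0 without HFD 1 and HFD 2. Rps3, at the mRNA entry of the small subunit and also linked to DNA repair, changed by -0.12 (95% interval -0.32 to 0.07), and all of its 100-base stretches are unique. Rpl4, which lines the exit tunnel, had 363, 370 and 432 CPM in HFD 3 to 10, against 298, 327 and 469 CPM in chow livers. Its change was 0.19 (95% interval 0.01 to 0.37, edgeR adjusted p = 0.107), one of the narrowest in the group. Rpl8, near the site of peptide bond formation, had 224, 259 and 296 CPM in HFD 3 to 10, against 261, 303 and 423 CPM in chow livers. 4 of the 8 HFD livers lay below the chow range, and the change was -0.21 (95% interval -0.41 to -0.01, adjusted p = 0.110). Rps15 changed by -0.26 (95% interval -0.52 to 0.01), Rps19, another gene of Diamond-Blackfan anemia, by -0.17 (-0.40 to 0.06) and Rpl22 by -0.17 (-0.43 to 0.09). Rps6 changed by 0.17 (-0.11 to 0.45), Rpl10, which lets the subunits join, by 0.10 (-0.16 to 0.35), and Rpl13a by 0.10 (-0.20 to 0.40). All changes in this paragraph use counts at the member alone. With near-copies added, Rps6 was at 185 to 284 CPM in HFD 3 to 10, against 192 to 346 CPM in chow livers. Rpl13a was then at 87.8 to 141 CPM, against 99.7 to 186 CPM. In the fit with near-copies and without HFD 1 and HFD 2, 16 named members had the opposite sign to the fit of all libraries. Rpl26 changed by 0.06 (-0.36 to 0.48) and Rpl3, which closes the peptide bond centre, by -0.12 (-0.41 to 0.17). Rpl7, Rps4x and Rpl36a, which have paralogs in the table or genome, changed by 0.09, 0.12 and 0.14, and Rpl39 by -0.39 (-0.82 to 0.03). Rpl38 had only 396 counts, and its interval from -0.82 to 0.57 excluded neither direction. With all libraries no stalk gene and none of the members in this paragraph passed the edgeR test, and their log2 changes ranged from -0.11 for Rpl3 to 0.83 for Rpl38.

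The median log2 changes of the subunits were close to each other in the diet comparison, while the ratio of their summed counts differed between HFD 3 to 10 and chow. Without HFD 1 and HFD 2, 3 of 31 small-subunit members (9.68%) were lower and 1 (3.23%) was higher, with a median log2 change of -0.10. Of 45 large-subunit members 2 (4.44%) were lower and 1 (2.22%) was higher, with a median of -0.12. Over all genes 10.4% were lower and 17.9% higher. With all libraries, 1 small-subunit member was lower and 1 higher (median 0.20), and 3 large-subunit members were higher (median 0.27). Summed small-subunit counts were 1.43 and 1.44 times the large-subunit counts in HFD 1 and HFD 2 and 1.20 to 1.29 times in HFD 3 to 10, against 1.27 to 1.40 times in chow livers, so that the ranges of HFD 3 to 10 and chow overlapped only at their ends.

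Members varied together from liver to liver, more so in chow. The median correlation of log2 CPM between 2 members was 0.33 over HFD 3 to 10 (n = 8) and 0.74 over chow livers (n = 10). For the 48 members of at least 10 CPM it was 0.56 in HFD 3 to 10 and 0.86 in chow. Chow 2, the highest chow liver for 72 of the 76, is part of the chow value, and all pairs share libraries and their depth. No value was computed without chow 2 or for pairs of other genes. Whether the difference between the groups rests on chow 2, or is particular to the members, was not tested. Rpl5 ran against the members' mean over the 18 libraries other than HFD 1 and HFD 2, with r = -0.36, the lowest of the 76. Among protein-coding genes other than ribosomal proteins, those most like the members' mean over these 18 libraries were Eef1b2, a translation elongation factor subunit (r = 0.96), D8Ertd738e (0.96), Cinp (0.96), Sf3b5 (0.94), Rtraf (0.94) and Lamtor5 (0.93).

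Of 6 further ribosomal protein genes outside the symbol rule, Rps3a1, of the small subunit, was higher with all libraries, with 124 ± 81.8 CPM in HFD and 72.9 ± 23.5 CPM in chow livers (SD, n = 10 each, log2 change 0.76, edgeR adjusted p = 0.0467), and was not called without HFD 1 and HFD 2 (0.27, adjusted p = 0.169). Rack1, Fau, Rpl36al, Rpl22l1 and Rpl7l1 were called in neither comparison. Rack1 averaged 369 ± 132 CPM in HFD and 338 ± 50.8 CPM in chow livers.

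Calls in the lists of other genes are to be read against all genes, of which 13.0% were higher and 7.05% lower with all libraries, and 17.9% higher and 10.4% lower without HFD 1 and HFD 2. Other TOP mRNAs gave 1 higher gene of 19 in both comparisons, Pabpc1, the poly(A)-binding protein. It averaged 190 ± 41.7 CPM in HFD and 140 ± 15.4 CPM in chow livers (log2 change 0.44, edgeR adjusted p = 0.0152), and 0.42 (adjusted p = 0.00415) without HFD 1 and HFD 2. Of 26 ribosome assembly genes 2 were higher and 1 lower in each comparison. Nop10, of the pseudouridine-making snoRNPs, averaged 37.6 ± 5.24 CPM in HFD and 50.7 ± 7.40 CPM in chow livers (-0.43, adjusted p = 0.00592), and was at -0.36 (adjusted p = 0.0105) without HFD 1 and HFD 2. Nop56, of the methylating snoRNPs, reached 141 CPM in the highest HFD library and had 1.68 (adjusted p = 0.0277) with all libraries and 0.12 (adjusted p = 0.543) without HFD 1 and HFD 2. RNA polymerase I and its factors had 2 of 14 higher with all libraries (Cd3eap and Taf1c) and 1 without HFD 1 and HFD 2 (Taf1c, 0.95, adjusted p = 0.00214).

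Initiation factors and mTORC1 outputs had 4 of 31 higher and 2 lower with all libraries, and 5 higher and 4 lower without HFD 1 and HFD 2. With all libraries these counts are near the shares of all genes, 13.0% higher and 7.05% lower. Rps6ka1 is a kinase of the ribosomal S6 family, and its level is not in itself a measure of mTORC1. It averaged 18.2 ± 5.20 CPM in HFD and 11.2 ± 2.19 CPM in chow livers (0.70, edgeR adjusted p = 0.00248). Without HFD 1 and HFD 2 its log2 change was 0.56 (edgeR adjusted p = 0.000933). Myc, which drives ribosome synthesis, had 1.75 (adjusted p = 0.0338) with all libraries and 1.97 (adjusted p = 0.0136) without HFD 1 and HFD 2, its highest HFD library being at 42.4 CPM against at most 6.56 CPM in chow livers. Eif4g3 and Eif5b were also higher with all libraries, at 1.34 (adjusted p = 0.0201) and 2.46 (adjusted p = 0.0209), and without HFD 1 and HFD 2 Eif4g3 was at 0.31 (adjusted p = 0.0374) and Eif5b was not called (-0.07, adjusted p = 0.771).

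Of the genes for mitochondrial ribosomal proteins, which build the separate ribosome inside mitochondria, 15 of 77 tested passed the test with all libraries, each lower in HFD, beside 7.05% of all genes. Their median log2 change was -0.27. Without HFD 1 and HFD 2, 22 passed, each lower, beside 10.4% of all genes, with a median of -0.21. Mrps27 averaged 13.4 ± 3.20 CPM in HFD and 24.6 ± 2.82 CPM in chow livers, all 10 HFD livers lying below the chow range (-0.86, edgeR adjusted p = 7.12e-05). Mrps10 averaged 19.8 ± 3.80 CPM in HFD and 29.3 ± 5.12 CPM in chow livers (-0.57, adjusted p = 0.00276). Mrps12 averaged 10.8 ± 3.36 CPM in HFD and 17.4 ± 3.43 CPM in chow livers (-0.70, adjusted p = 0.00357), and Mrpl28 averaged 27.2 ± 3.85 CPM in HFD and 38.1 ± 7.18 CPM in chow livers (-0.48, adjusted p = 0.00498). Without HFD 1 and HFD 2 these 4 genes were at -0.70, -0.51, -0.86 and -0.45 in the same order, each called. The difference between the cytosolic and mitochondrial lists was not tested.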

How the data were processed

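Liver RNA-seq of 10 HFD and 10 chow samples was used. The deposited table holds the authors' read counts per gene and FPKM values, which in each library were the counts scaled per gene. Reads were trimmed with fastp and the build was mm10 (GRCm38), per the submitters' processing notes. Aligner, counter, annotation and strand setting were not given in the sources used, so reads of overlapping genes may be mixed. Of the named members, Rpl24, Rpl13a, Rps10 and Rpl5 share the most exon bases with exons of other genes. The shares are 47.0%, 35.4%, 28.7% and 26.7% in that order, and 47.0%, 35.4%, 20.55% and 2.40% on the same strand alone. Among tested members, 14 share over 10%. Of 55401 gene IDs, 55141 matched GENCODE M21.

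Counts of genes passing filterByExpr (minimum count 10, minimum total 15) were TMM-scaled and tested with edgeR 4.0.16 (quasi-likelihood, robust, R 4.3.3), HFD over chow, with Benjamini-Hochberg adjustment over all tested genes and a threshold of 0.05. The fit was repeated without HFD 1 and HFD 2, and also without chow 9 (high rRNA). These were planned with earlier results of the data known, and the fits with near-copy counts were chosen after seeing the files. Other alternatives used limma 3.58.1, DESeq2 1.42.0, other scalings and filters, a replicate block and leaving out each library. Sequence uniqueness was computed from GENCODE M21 transcripts on both strands. Start windows and promoters came from RefSeq (GRCm38.p6). The edgeR procedure was also run on simulated counts. These had a single dispersion for all genes and no libraries like HFD 1 and HFD 2, so they cannot show how such libraries affect the calls. The chi-square distance of counts per gene was 10.6 for the closest pair of libraries, so no sample was treated as a duplicate.

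Members and lists were chosen with earlier results of these data known. Named members were those called in the comparison of all libraries, the 6 highest and 4 lowest by mean FPKM, the P stalk, paralog pairs, and a set with textbook roles. Named genes of other lists were up to 4 per list with the smallest p-values. 1 gene of the list of ribosomal protein genes outside the symbol rule is not reported here, for a reason other than its values.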

Additional observations from a re-analysis of the deposited data

Results flagged for a closer look

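In 31 of 70 sets of values checked (the named members and the members' share of nuclear protein-coding counts, each within HFD or within chow), the highest library lay far from its nearest neighbour relative to the whole range of its group. For independent, normally distributed values, chance alone gives this in about 1 of 20 groups. The sets share the same libraries and the members vary together, so this rate cannot be set against the count of 31. Chow 2 was the library that stood apart in 21 sets, HFD 2 in 6 and HFD 1 in 4. Libraries of a group that are high together can be missed, since each is then the nearest neighbour of the other. HFD 1 and HFD 2 both lay above the highest of the 18 other libraries for 47 of 76 tested members. The counts of sets therefore do not rank these libraries.

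HFD 1 stood apart for Rpl5 (30.6 CPM), Rpl35a (84.3 CPM), Rpl38 (6.93 CPM) and Rps27 (6.35 CPM). HFD 2 stood apart for Rpl4 (596 CPM), Rpl7 (447 CPM), Rpl11 (7.50 CPM), Rplp0 (1155 CPM), Rplp2 (44.7 CPM) and Rps27a (20.6 CPM). Both are the libraries with mostly mitochondrial counts.

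Chow 2 stood apart in the members' share of nuclear protein-coding counts, at 1.10%. Among small-subunit members it did so for Rps2 (788 CPM), Rps3 (463 CPM), Rps4x (323 CPM), Rps15 (492 CPM), Rps19 (91.6 CPM), Rps27a (2.00 CPM), Rps27l (290.2 CPM) and Rpsa (407 CPM). Among large-subunit members it did so for Rpl4 (469 CPM), Rpl7 (343 CPM), Rpl8 (423 CPM), Rpl13a (11.1 CPM), Rpl22 (181 CPM), Rpl26 (200.1 CPM), Rpl36 (75.0 CPM), Rpl36a (8.39 CPM) and Rpl38 (0.785 CPM). The stalk genes Rplp0 (584 CPM), Rplp1 (238 CPM) and Rplp2 (42.2 CPM) were also highest by far in chow 2. Whether the low endothelial and stellate marker sums of this library have a part in these values was not tested.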

How the results depend on the processing

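With all libraries, 4 members were higher and 1 lower, and 2911 of all tested genes were called. The counts were 0 and 0 with library totals (600 genes called), on log2(FPKM + 1) (716 genes) and on log2(FPKM + 0.1) (495 genes). They were 0 and 2 with voom (2590 genes) and 7 and 7 with voom quality weights (5364 genes). DESeq2 gave 9 and 1 (3878 genes), and the fit without a filter 2 and 1 (3080 genes). With near-copies added they were 1 and 1 (2920 genes), and without HFD 1 and HFD 2 they were 2 and 5 (4190 genes). Leaving out chow 9 (high rRNA) as well gave 1 and 6 (3934 genes). With near-copies added and HFD 1 and HFD 2 left out they were 0 and 6 (4186 genes). Leaving out 1 library gave 0 to 7 higher and 1 to 2 lower, with 2424 to 3330 genes called. Beside the counts of 0, 2 members (library totals), 3 members (on each FPKM scale) and 7 members (voom) had an unadjusted p under 0.05, in either direction.

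The members' median of 0.25 was -0.18 with library totals, -0.23 and -0.30 on the 2 FPKM scales and -0.12 without HFD 1 and HFD 2. Rps2 was -0.35 with voom quality weights, -0.44 without HFD 1 and HFD 2, -0.47 without chow 9 as well and -0.42 with near-copies added and HFD 1 and HFD 2 left out. Rpl28 was -0.18, -0.0124 and -0.19 under the first, second and last of these, Rpl10a -0.0377 and -0.27 under the first and last, Rpsa -0.36 and -0.33 under the third and last, and Rps27a -0.0454 under the last. The members' share of counts differed by -0.11 percentage points (HFD minus chow) by 0.37 with nuclear protein-coding counts as denominator, and by 0.0042 without HFD 1 and HFD 2. The cause of these shifts was not tested.

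With the replicate number as a block, 1 member was higher (Rps15a), 1 was lower (Rps27l, -0.72, edgeR adjusted p = 0.0404) and 1574 genes were called. Deviations of same-numbered samples correlated at -0.11 to 0.13. For replicate 2, at 0.13, the chow sample closest to the HFD sample was the one of the same number. These low values do not show pairing by number, but they cannot exclude shared handling.

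Rps27l was called under 34 of 37 settings, with log2 changes from -1.20 to -0.40, and Rpl5 under 29 of 37, from 0.21 to 2.34. Rpl38, with few counts, had the widest interval in both comparisons; Rps10 was among the 3 widest only without HFD 1 and HFD 2. HFD 1 and HFD 2 hold few nuclear counts, which limits their precision.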
